A study of Mus musculus with 2 samples.

Results

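The brain of TDAG51 knockout dams that carried a TDAG51 transgene was compared with wild-type brain, to describe which transcripts the transgene left away from the wild-type level. The comparison used 2 of the 4 sample channels of the series, the Cy5 channels of its 2 two-colour arrays. Array 1 held TDAG51 WT in Cy5 and TDAG51 KO in Cy3, and array 2 held TDAG51 KO Tg in Cy5 and TDAG51 KO in Cy3. The difference between the Cy3 channels, both labelled KO, served as the technical yardstick. All samples were total RNA of whole brain from C57BL/6J females aged 8 weeks on postpartum day 0. WT dams had intact TDAG51, KO dams lacked it, and KO Tg dams lacked the endogenous gene and carried the transgene. The number of dams behind each sample was not given in the sources used here, nor whether both KO channels held the same RNA. With 1 sample per group, no test between genotypes was possible, and every difference below describes these samples.

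TDAG51, encoded by Phlda1, is a pleckstrin homology-like domain protein that many cell types induce under stress. In KO Tg dams, mouse TDAG51 was driven by BAI1-AP4, a brain promoter with most of its activity in cortical and hippocampal tissue. A return to the wild-type level therefore need not be alike in all brain regions. The study's methods give the transgenic dams as 1 line, Tg2, which the labels do not name.

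Of 40981 probes with an unflagged spot on both arrays, 33377 were well above background in Cy5 on at least 1 array and were compared. Median spot intensity in Cy5 was 364 on array 1 and 385 on array 2, over a median local background of 39 on each. KO Tg over WT had a robust SD of 0.50 on the log2 scale, and the KO difference between arrays had a robust SD of 0.18 over 34207 probes. KO Tg was at least 2-fold higher than WT for 2267 probes (6.79% of those compared) and at least 2-fold lower for 2288 (6.86%). Between the KO channels, 447 probes (1.31%) were at least 2-fold apart. All 22 cortex and hippocampus markers and all 14 astrocyte markers passed this filter. Xist, the X-inactivation transcript of females, read 8608 in WT and 6330 in KO Tg, and probes of 4 Y-linked genes were not well above background in either. An 8-fold gap separated KO Tg from WT for 117 higher and 125 lower probes, and the KO channels for 38. Of the 4555 probes past 2-fold, 805 also had a KO difference above 0.5 on the log2 scale. Of the 60 probes with KO at least 4-fold brighter on array 1, 46 lay in 1 block of that array, which held 1261 of the compared probes.

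**Figure D1:**
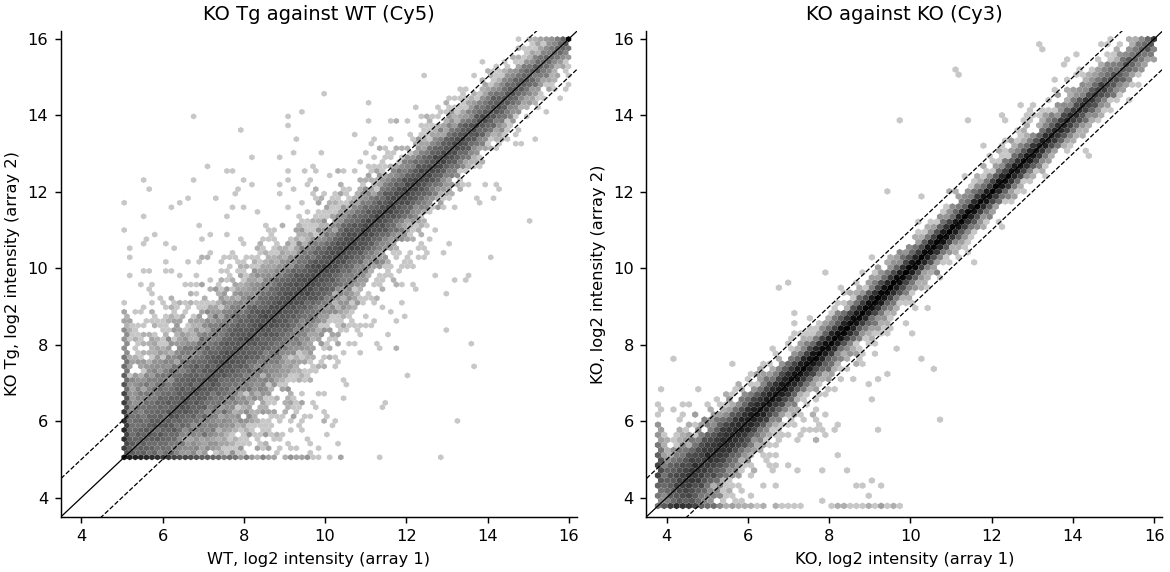
Normalized log2 intensity of each compared probe, KO Tg against WT in Cy5 (left) and KO on array 2 against KO on array 1 in Cy3 (right); darker hexagons hold more probes, the solid line marks equal levels and the dashed lines a 2-fold difference. The cloud is wider on the left, with robust SDs of 0.50 and 0.18, and the straight edges at low level are probes set to the background floor.

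For 220 probes printed in at least 5 spots, the spread of the difference between spots of a probe could be measured. Its median SD was 0.15 on the log2 scale for KO Tg over WT and 0.14 for the KO channels. Among these probes 16 were at least 2-fold higher in KO Tg and 11 lower, and 0 were 2-fold apart between the KO channels. Erbb2, a receptor tyrosine kinase, read 40.5 in WT, 332 in KO Tg, and 38.9 and 46.3 in KO on array 1 and array 2. Ptch1, the receptor for Hedgehog ligands, read 779 in WT, 72.1 in KO Tg, and 225 and 164 in KO. These differences, 3.03 and -3.43 on the log2 scale, were far wider than the spread between spots, which covers the array alone and not dams. A second probe of each gene read otherwise: Erbb2 -1.90 and Ptch1 -0.28.

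The targeted gene was examined first. The Phlda1 probe reads chr10:110970234-110970293 of build mm7, of which the first 30 bases are shown because this probe checks the labels; the capitals mark the whole stretch printed.
Phlda1: ATGACTTTATTTATGGACCTTTGGAAGGAT
Phlda1 read 7332 in WT. It was not well above background in KO Tg, and KO read 307 on array 1 and was not well above background on array 2. KO Tg was at least 221-fold lower than WT, both in Cy5, and KO over WT within array 1 was -4.11 on the log2 scale. The KO channels disagreed for this probe. Which part of the transcript the probe reads was not determined, and the sources used here do not say whether the transgene holds that stretch, so its value cannot be taken as a measure of transgene expression. The paper reported TDAG51 expression in the brain of its transgenic lines by RT-PCR and immunofluorescence. Of the relatives, Phlda3 read 2178 in WT and 2381 in KO Tg (log2 difference 0.13), and Phlda2 was not well above background in either.

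Probes were then sorted by KO over WT within array 1 and KO Tg over WT across arrays. WT enters both differences, so the counts that follow describe the overlap and do not test it. KO was in Cy3 and the other genotypes in Cy5 on both arrays, with no dye swap. A dye effect of a probe therefore cannot be told apart from a difference between KO and WT or between KO and KO Tg. Among compared probes, KO was at least 2-fold higher than WT for 1616 and at least 2-fold lower for 1526. KO Tg stayed at least 2-fold away from WT on the KO side for 376 of the former (1.13% of all compared probes) and 711 of the latter (2.13%), which are called not restored here. That is 23.3% of the probes higher in KO and 46.6% of those lower in KO. KO Tg was within 2-fold of WT for 1206 and 795 probes. It lay past WT on the opposite side for 34 and 20. From the deposited log2 ratios the same classes held 1003 and 1199 probes, which are closer to each other, and with normexp and an offset of 50 they held 248 and 575. Of the probes not restored, KO Tg was within 1.5-fold of KO on array 2 for 237 of 376 higher and 570 of 711 lower.

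**Figure D2:**
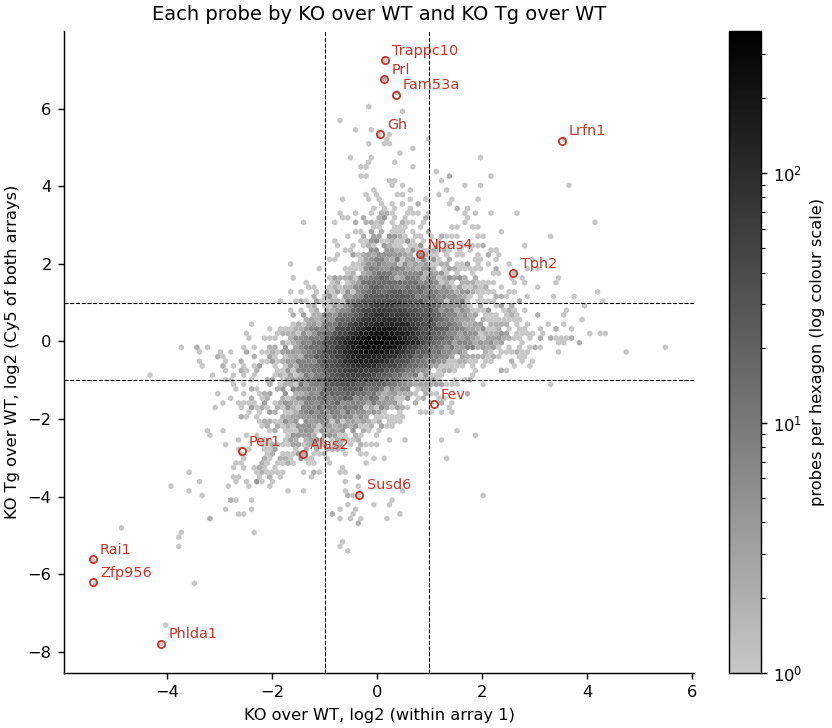
Log2 KO over WT within array 1 (horizontal) against log2 KO Tg over WT from the Cy5 channels (vertical) for each compared probe, with dashed lines at 2-fold and named genes circled. The 376 and 711 probes not restored lie in the upper right and lower left corners; Phlda1 is drawn at its lower bound. WT is shared by both axes, which by itself draws the points along the rising diagonal.

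Cy5 and Cy3 intensities are on separate scales, so in what follows KO Tg is set against WT in Cy5, and KO against either only by the ratio within an array. Among transcripts lower in KO and not restored, Rai1, a transcriptional regulator, read 12528 in WT, 257 in KO Tg, and 193 and 150 in KO. Zfp956, a zinc finger gene, read 12448 in WT, 170 in KO Tg, and 193 and 220 in KO. Hira, a histone chaperone, read 3489 in WT, 249.5 in KO Tg, and 202 and 203 in KO. For these 3 genes KO over WT within array 1 was -5.41, -5.40 and -3.58 on the log2 scale, and KO Tg over KO within array 2 was 0.44, -0.44 and 0.075. Nr3c2, the mineralocorticoid receptor, read 1275 in WT, 64.6 in KO Tg, and 164 and 145 in KO. Slc25a22, a mitochondrial glutamate carrier, read 11148 in WT, 838 in KO Tg, and 568 and 656 in KO. Xrcc6, the Ku70 subunit of the DNA end-joining machinery, read 7843 in WT, 666 in KO Tg, and 984 and 994 in KO. The 12 genes named by size in this class had log2 differences from -3.56 for Xrcc6 to -6.20 for Zfp956, and also included Yipf6, Zfp651, Scube3, Slc48a1, Apln and Iars2. Of these 12 genes, 6 had another non-overlapping probe, and in all 6 every other probe was within 2-fold of WT. Per1, a core clock gene, read 4883 in WT, 685 in KO Tg, and 642 and 658 in KO.

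Transcripts higher in KO and not restored were led by Lrfn1, a synaptic adhesion protein, which read 101 in WT, 3661 in KO Tg, and 1521 and 1583 in KO. Smg6, an endonuclease of nonsense-mediated decay, read 467 in WT, 7417 in KO Tg, and 5579 and 5023 in KO. Smarcal1, a DNA annealing helicase, read 252 in WT, 5071 in KO Tg, and 1171 and 1168 in KO. Tacc1, a centrosomal protein, read 529 in WT, 13660 in KO Tg, and 1945 and 1722 in KO. KO Tg was above WT for all 4 by the definition of the class. For Tacc1 and Smarcal1 KO Tg also stood above KO within array 2, by 2.62 and 1.81 on the log2 scale. The 12 genes named by size ran from 3.48 for Ephb2 to 5.18 for Lrfn1, and also included Obsl1, Clasp1, Atp8b2, Zfp7, Sema6c, Vil1 and Gorasp2. Of these 12 genes, 10 had another non-overlapping probe. In 8 of the 10 every other probe was within 2-fold of WT, and in 2 another probe was 2-fold the same way.

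A further 436 probes (1.31%) were higher in KO Tg alone and 217 (0.65%) lower in KO Tg alone, with KO within 1.5-fold of WT. Trappc10, a subunit of a vesicle tethering complex, read 111 in WT, 16773 in KO Tg, and 114 and 125 in KO. Fam53a read 51.2 in WT, 4197 in KO Tg, and 70.4 and 68.6 in KO. Col1a1, a fibrillar collagen chain, read 77.3 in WT, 3117 in KO Tg, and 91.4 and 119 in KO. KO over WT within array 1 was 0.16, 0.35 and 0.27 on the log2 scale for these 3, and KO Tg over KO within array 2 was 6.30, 4.87 and 3.96. On the lower side, Susd6 read 977 in WT, 63.4 in KO Tg, and 659 and 679 in KO. Etnppl, an ethanolamine phosphate lyase of astrocytes, read 1248 in WT, 267 in KO Tg, and 1308 and 1260 in KO. Crhr1, the receptor for corticotropin-releasing hormone, read 1211 in WT, 174 in KO Tg, and 799 and 720 in KO by 1 probe, while its brighter probe read 3208 in WT and 2816 in KO Tg.

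**Figure D3:**
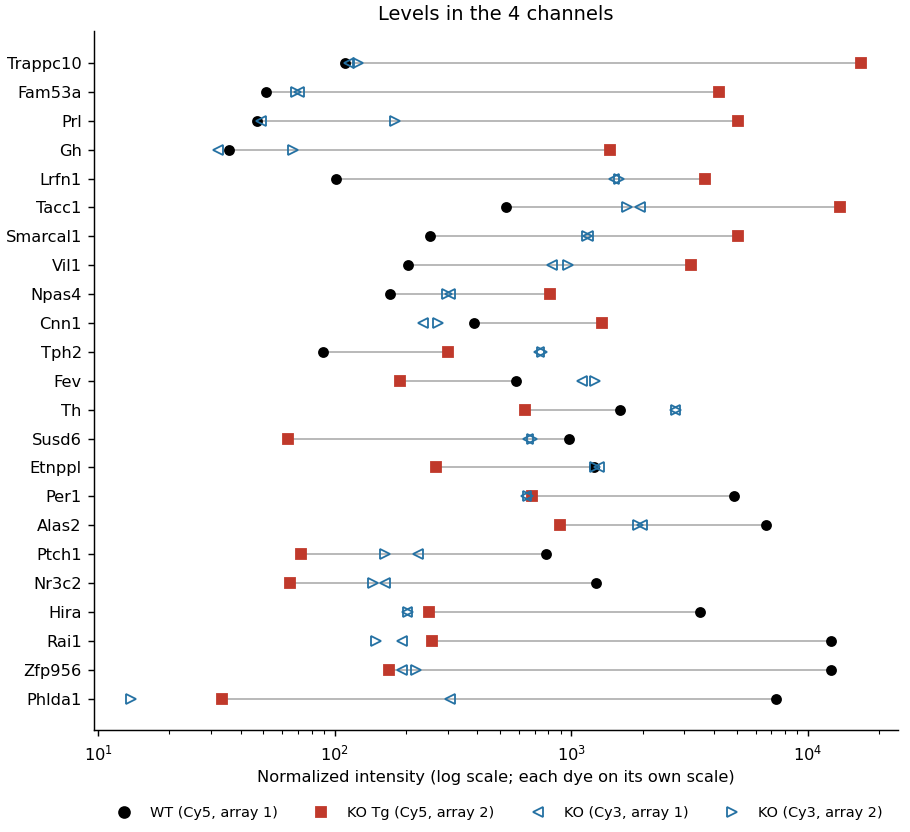
Normalized intensity on a log scale of 23 genes in the 4 channels: WT (circles), KO Tg (squares), KO on array 1 and on array 2 (triangles), each gene by its probe with the widest KO Tg to WT difference, with no error bars because each point is 1 channel. Cy3 and Cy5 have separate scales, so a triangle is compared only with a triangle and a circle only with a square. Rai1 and Zfp956 are high in WT, Trappc10 and Fam53a in KO Tg.

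The array carries several probes for many genes, and they seldom shared these differences. In 6241 genes with a pair of probes well above background in all channels, the correlation across genes of KO Tg over WT between the brighter and the other probe was 0.12 (Pearson) and 0.14 (Spearman); genes are not independent replicates. It was 0.82 for 231 pairs that overlapped, 0.33 for 1453 pairs with starts up to 1000 bases apart, and 0.041 for 2331 pairs over 5000 bases apart. KO over WT within array 1 gave 0.93, 0.59 and 0.18 for the same pairs. Of 378 genes whose brighter probe was at least 2-fold away from WT, the other probe was as far the same way in 74 and the opposite way in 26. Of the 15 genes with the widest differences each way, 11 on the higher side and 9 on the lower side had another probe elsewhere in the gene, and that probe was within 2-fold of WT in all 20. Rai1, Zfp956, Trappc10 and Lrfn1 had no other compared probe. The large single-probe values above are therefore differences at a probe, and in Nr3c2, Hira, Smarcal1, Tacc1, Fam53a, Col1a1, Susd6 and Etnppl other probes of the gene did not share them. Why probes of a gene differed was not tested.

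**Figure D4:**
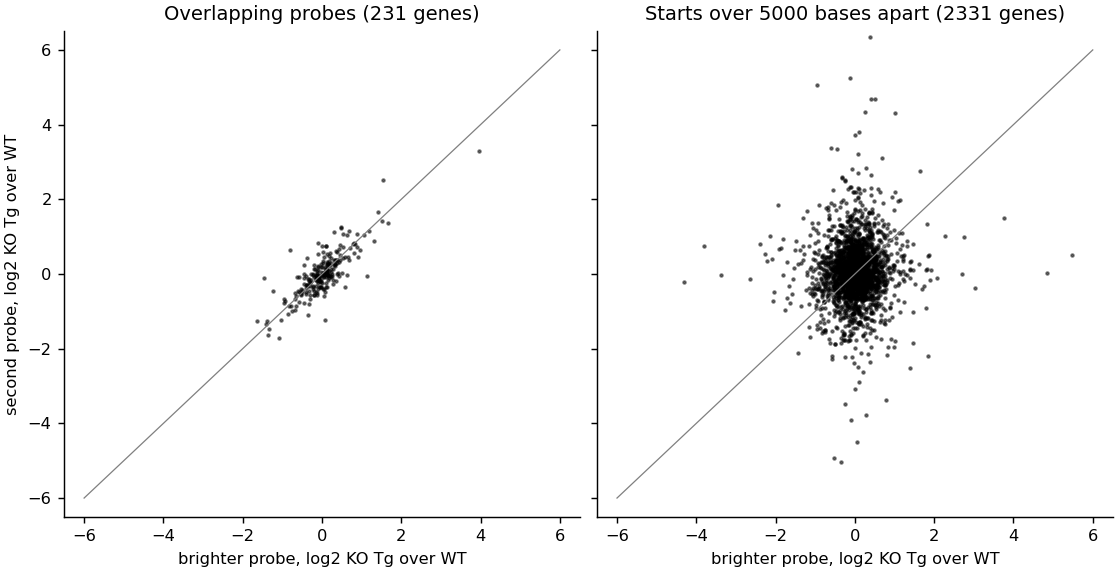
Log2 KO Tg over WT of the brighter probe of a gene (horizontal) against that of its second probe (vertical), 1 point per gene, for overlapping probes (left) and probes with starts over 5000 bases apart (right); the line marks equal values. Overlapping probes follow the line (r = 0.82), and distant probes do not (r = 0.041).

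Spag9, a scaffold protein of JNK signalling, shows this within a gene. A pair of its probes that share 45 bases fell to -3.35 and -3.29, while 4 others lay between -0.02 and 0.45. The first 30 bases of the pair are printed because they show how far the probes overlap, with the bases that both probes read in capitals, at chr11:94223238-94223267 and chr11:94223253-94223282 (mm7, plus strand).
Spag9 probe 1: aaccgtcctggaagtGTAATCCGTGTATAT
Spag9 probe 2: GTAATCCGTGTATATGGTGATGAGAACAGT
Isg20, an interferon-induced exonuclease, was the contrary case. Its probes at chr7:74777621-74777650 and chr7:74779788-74779817 do not overlap, and both were far lower in KO Tg, by -4.90 and -3.21 on the log2 scale. The KO channels also differed for them, by -0.94 and -0.57 on the log2 scale. Their first 30 bases are shown in capitals as examples of separate stretches that agreed in direction.
Isg20 probe 1: CGCTGCAGCATTGTGAACATCCATGGCGCA
Isg20 probe 2: TGCCCTGAAGGAGGATATGAGCAAGTACAC

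Genes with at least 2 non-overlapping probes past 2-fold the same way, and with the KO channels within 0.5 on the log2 scale for those probes, were chosen after the values were seen. They numbered 59 higher in KO Tg (0.92% of 6410 genes with such probes) and 50 lower (0.78%). All probes of the gene counted here were past 2-fold in 18 and 31 of them. Lower genes included Tomm40, the mitochondrial import channel (-1.66 for the smaller of its differences), Gimap5, a lymphocyte GTPase (-1.64 and -1.82), Pla2g4b, a phospholipase (-1.26 to -2.76 over 3 probes), and Ephx1, a xenobiotic epoxide hydrolase (-1.45 and -1.57). Tomm40, Gimap5 and Pla2g4b were also lower in KO, with median KO over WT of -2.02, -1.51 and -2.08, and Ephx1 was at -0.65. Higher genes included Cd300lg, a receptor of capillary endothelium (1.46 and 3.26), Abcc9, a potassium channel subunit of pericytes (1.45 and 1.78), Lama4, a laminin chain of vessel basement membrane (1.45 and 1.83), and Gucy1b1, a soluble guanylate cyclase subunit (1.36 and 2.22). Lama4 was also higher in KO, with a median KO over WT of 1.43, and Cd300lg, Abcc9 and Gucy1b1 were at 0.57, 0.54 and -0.42. Abcc9, Lama4 and Gucy1b1 also had probes within 2-fold of WT.

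Named groups of genes were described by the brightest probe of each gene. Over all 22475 genes and unnamed transcripts the median KO Tg over WT was -0.0031, with 6.05% at least 2-fold higher and 6.68% lower. Marker genes of the cerebellum, hindbrain, cortex and hippocampus, and striatum had medians away from WT in KO and near it in KO Tg, and those of the thalamus and olfactory bulb had medians nearer to 0 in KO. For 20 cerebellum genes the median KO over WT was 1.96 and the median KO Tg over WT 0.0033. All 15 that were at least 2-fold higher in KO were within 2-fold of WT in KO Tg. Slc6a5, the glycine transporter of hindbrain neurons, read 138 in WT, 97.7 in KO Tg, and 1262 and 1203 in KO. The 17 hindbrain and brainstem genes had medians of 1.04 for KO and -0.035 for KO Tg, and all 9 past 2-fold in KO were within it in KO Tg. The 22 cortex and hippocampus genes had a median of 0.026 in KO Tg, and all 11 lower in KO were within 2-fold in KO Tg. The 15 striatum genes had medians of -1.41 and -0.10. Rarb, a retinoic acid receptor, was the striatal exception at -2.39, with a KO difference between arrays of -1.76. The 11 thalamus genes had medians of 0.023 for KO and -0.13 for KO Tg, with 1 past 2-fold in KO and 0 in KO Tg. The 13 olfactory bulb genes had medians of -0.48 and -0.28, with 7 past 2-fold in KO and 2 lower in KO Tg. Interneuron genes (16) had medians of -1.01 and -0.19, with none past 2-fold in KO Tg. Some of these markers are also among the genes the study tabulated, such as Drd1, Adora2a and Penk of striatum, Gabra6 of cerebellum and Npy of interneurons. The study chose its genes on these samples, by KO against WT and against KO Tg, so such members are not independent evidence. Markers of several regions moved in KO in opposite directions, and the part that tissue composition had in this was not tested. With KO in Cy3 alone, a dye effect of the probes cannot be told apart from a KO difference that KO Tg does not share.

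**Figure D5:**
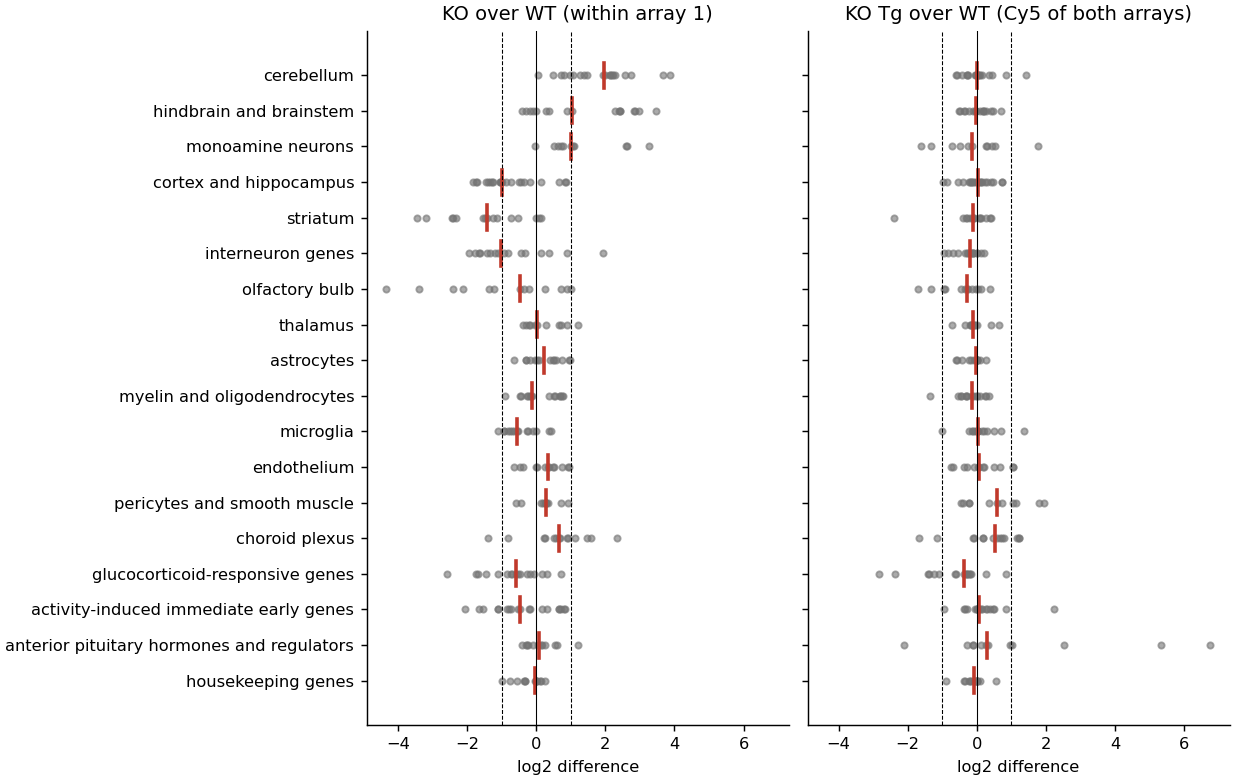
Log2 KO over WT (left) and log2 KO Tg over WT (right) of each compared gene (grey points, brightest probe) in 18 gene lists, with the list median as a red bar and dashed lines at 2-fold. Cerebellum and hindbrain medians of 1.96 and 1.04 and the striatum median of -1.41 in KO lie at 0.0033, -0.035 and -0.10 in KO Tg.

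Astrocyte, oligodendrocyte precursor, heat shock and housekeeping genes were near WT, with 0 of 14, 8, 11 and 14 past 2-fold. Myelin genes had 1 of 15 lower, Mog (617 in WT, 240 in KO Tg). Of 15 microglia genes 13 were within 2-fold of WT, with a median of 0.039. The others were Cx3cr1, the fractalkine receptor, at 1.38 and Csf1r, the colony stimulating factor receptor, at -1.02. Cytosolic ribosomal protein genes had 0 of 82 past 2-fold, and oxidative phosphorylation genes 2 of 83. The ribosomal protein genes had a median KO over WT of -0.50 and a median KO Tg over KO of 0.37. The part that the dye had in this was not tested.

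Among pituitary genes, hormones of the somatotroph and lactotroph cells were far higher in KO Tg than in WT. Prl, prolactin, read 47.1 in WT, 5082 in KO Tg, and 49.0 and 180 in KO. Gh, growth hormone, read 35.9 in WT, 1452 in KO Tg, and 32.2 and 66.8 in KO. Pou1f1, the transcription factor of both cell types, read 63.8 in WT, 368 in KO Tg, and 111 and 150 in KO. Within arrays, KO over WT was 0.13, 0.049 and 0.60 on the log2 scale for these 3, and KO Tg over KO was 4.23, 3.40 and 0.86. KO was also brighter on array 2 than on array 1, by 1.88, 1.05 and 0.44 on the log2 scale. By real-time PCR of whole brain, the paper reported Prl higher in KO dams than in WT dams. Array 1, which alone holds WT, gave 0.13 for Prl, with WT at 47.1, near the Cy5 floor of 33.2. The offset of 50 shrinks differences of such dim probes, so this value does not settle whether Prl differed between KO and WT. The other hormones were near WT: Pomc at 0.12, Cga at 0.31, and the brighter Lhb probe at -0.29. Pitx1, Gnrhr and Neurod4 were not well above background in WT or KO Tg. Of the 12 compared members 4 were higher and 1 lower, with a median of 0.28 that ran from 0.14 to 0.68 under other settings. Whether pituitary tissue was present to differing extents was not tested. Prl receptor, Prlr, was at 0.74 and oxytocin, Oxt, at 0.32.

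Glucocorticoid-responsive genes were lower in KO Tg for 6 of 17 and higher for 0, with a median of -0.37, which was -0.57 from the deposited log2 ratios and -0.56 with each gene at its median probe value. These were Per1 (-2.83), Arrdc2, an arrestin relative (-2.38), Sgk1, a serum-induced kinase (-1.40), Plin4, a lipid droplet protein (-1.39), Angptl4, a lipase inhibitor (-1.23), and Sult1a1, a sulfotransferase (-1.10). A second Sgk1 probe was at least 2-fold higher in KO Tg. KO Tg over KO within array 2 lay between -0.22 and 0.07 for all 6. Npas4, an activity-induced transcription factor, was the 1 immediate early gene of 19 past 2-fold, and read 171 in WT, 811 in KO Tg, and 307 and 297 in KO.

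Of 11 pericyte and smooth muscle genes, 4 were at least 2-fold higher in KO Tg and 0 lower, with a median of 0.58. Cnn1, a contractile regulator of smooth muscle, read 386 in WT, 1350 in KO Tg, and 236 and 273 in KO. Myh11, smooth muscle myosin, read 560 in WT, 1232 in KO Tg, and 597 and 532 in KO. Rgs5 read 1.95 and Kcnj8 1.06, but other probes of these genes read 0.38 and -0.18, and KO differed between arrays for Rgs5 by -1.13. Without probes whose KO channels differed by over 0.5, the pericyte and smooth muscle median was 0.38. Of 14 choroid plexus genes, Otx2, Slc4a5 and Calml4 were higher (1.23, 1.22 and 1.15), Aqp1 and Folr1 lower (-1.67 and -1.15) and 9 within 2-fold, with a median of 0.52.

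Of 11 monoamine neuron genes, 8 were within 2-fold of WT in KO Tg, 1 was higher and 2 were lower. Tph2, the enzyme of brain serotonin synthesis, read 89.3 in WT, 301 in KO Tg, and 730 and 753 in KO. Its KO over WT within array 1 was 2.60 and its KO Tg over KO within array 2 was -1.36 on the log2 scale. Fev, a transcription factor of serotonin neurons, read 582 in WT, 189 in KO Tg, and 1111 and 1262 in KO. Th, the enzyme of dopamine and noradrenaline synthesis, read 1600 in WT, 636 in KO Tg, and 2735 and 2777 in KO. With KO over WT of 1.08 and 1.01 within array 1, Fev and Th lay past WT on the side away from KO. Further genes on that side were Htr7, a serotonin receptor, Cabp7, a calcium-binding protein, and Bin1, a membrane-bending protein, at -1.06, -2.42 and -1.78 with KO over WT of 1.16, 1.91 and 1.38. In the other direction were Pde2a, a cyclic nucleotide phosphodiesterase, Kcnip2, a potassium channel partner, Nptx2, a synaptic pentraxin, and Dbn1, a dendritic spine protein, at 1.99, 1.88, 1.28 and 1.57 with KO over WT of -1.67, -1.08, -1.64 and -1.33. Of the 39 genes the study tabulated as lower in KO, 37 were within 2-fold of WT in KO Tg and 2 higher. Of the 31 tabulated as higher, 27 were within 2-fold, 1 higher and 3 lower. Most of the array was also within 2-fold: 86.4% of all compared probes were. By brightest probe over all genes, 6.05% were higher and 6.68% lower, so these counts alone do not set the tabulated genes apart. In this processing 24 of the 39 and 15 of the 31 were at least 2-fold away from WT in KO. Of those, 23 and 11 were within 2-fold of WT in KO Tg. The study chose both lists on these samples, by fold changes of KO against WT and against KO Tg. A KO Tg level near WT was thus partly built into the lists, so they are not independent evidence. Tph2, Slc6a4, Fev and Slc6a2 of the monoamine neuron genes are also among those tabulated as higher.

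Red blood cell genes separated the KO channels. Hba-a1, an alpha globin, read 33134 in WT, 23534 in KO Tg, and 2226 and 35004 in KO by its brighter probe. Its other probe read 30570 in WT, 9623 in KO Tg, and 2625 and 15134 in KO, with KO Tg over WT at -1.67. A probe of Hbb-bt, a beta globin, was at -1.33 but saturated in WT, and its other probes were within 2-fold. The list median was -0.52, and -1.67 without the block of array 1. KO was low on array 1 alone, so globins counted as lower in KO there and not on array 2. Alas2, the haem synthesis enzyme of erythroid cells, read 6675 in WT, 894 in KO Tg, and 1988 and 1920 in KO. Slc4a1, the red cell anion exchanger, read 916 in WT, 170 in KO Tg, and 440 and 423 in KO. For both of these WT was high and KO Tg low, while the KO channels were alike.

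Differences were spread over the genome. By chromosome, 10.9% to 14.6% of compared probes were past 2-fold and 2.59% to 4.14% were not restored, against 13.6% and 3.26% overall. Within 10 Mb of Phlda1 on either side, without Phlda1, 34 of 184 probes were past 2-fold (18.5%) and 9 were not restored (4.89%). Among those 9 probes were Csrp2, Thap2 and Tph2, higher in KO Tg, and Kifc5c-ps, Irak3, Alx1, Ptprb and Glipr1l1, lower. Csrp2, a LIM domain protein, read 311 in WT, 903 in KO Tg, and 1399 and 1357 in KO. The Ptprb and Glipr1l1 probes were well above background in WT and not in KO Tg. A pair of brighter Ptprb probes went the other way, at 1.19 and 1.09 higher in KO Tg on the log2 scale.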

How the data were processed

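Per the file headers, the authors scanned 2 Agilent whole mouse genome arrays and extracted spot intensities with Feature Extraction 9.5.3.1; spot and local background intensity were deposited without normalization. Coordinates are those of mm7 in the files. The deposited table of log2 ratios by the authors correlated with Cy5 over Cy3 at -0.90 and -0.91 on the 2 arrays, so it was read as Cy3 over Cy5; its scale and centring are not given in the sources used here. The deposited log10 ratio of the scanner was not used.

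Median local background was subtracted from mean intensity. Spots with an outlier flag and control spots were left out, spots of a probe were averaged, and the channels of a dye were quantile-normalized between arrays and floored at the lowest signal well above background (33.2 in Cy5, 13.8 in Cy3) before log2. A probe below background on 1 array gives a lower bound. KO over WT and KO Tg over KO came from limma 3.58.1 in R 4.3.3 (normexp, offset 50, loess within arrays). Calls are at least 2-fold, with no test. The steps were tested on simulated data. The number of arrays limits the precision.

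Probe names were updated through RefSeq (GRCm38.p6) tables: 22970 probes matched by accession, 6554 by symbol, 3060 by synonym and 8397 not at all. Named genes were the TDAG51 family, the 15 largest differences each way measured on both arrays with KO channels within 0.5 on the log2 scale, the 5 largest bounds, the 12 largest of each class, leading members of gene lists, and genes within 10 Mb of Phlda1 not restored; clone names were skipped. The members and lists were chosen with earlier results of these data known. Alternatives covered background, normalization, filters, saturation, the KO difference, the deposited ratios and, chosen after seeing the data, the block of array 1. Results for some genes are not reported here.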

Additional observations from a re-analysis of the deposited data

How the results depend on the processing

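Of 104 recomputed counts and robust SDs, 91 stayed within 1.5 times the reported count or within the KO spread. That limit is wide for the robust SDs, because the KO spread is itself among them. All results that moved were counts. With normexp and an offset of 50, which shrinks differences of dim probes, 1191 probes were at least 2-fold higher in KO Tg, 1290 lower, 112 were apart between the KO channels and 248 were not restored on the higher side. With loess and Aquantile these numbers were 1148, 1270, 119 and 240. Requiring a signal well above background on both arrays left 229 probes apart between the KO channels, and leaving out probes with a KO difference over 0.5 left 0 by construction. From the deposited log2 ratios, whose KO over WT is also theirs, 1003 probes were not restored on the higher side, 1199 on the lower side and 538 were lower in KO Tg alone; the cause was not tested. Of 1395 recomputed differences of the 87 named genes, 262 moved by more than the KO spread and 0 called differences changed sign. Of 533 recomputed list medians, 19 moved by more than that spread. The red blood cell median moved most, from -0.52 to -2.85 as a ratio of the ratios. The median over all probes stayed within 0.1 of 0 in all settings. Ratio of the ratios and the deposited ratios give no KO difference between arrays. No paired analysis was possible because each group has 1 sample. Dim probes, near the floor, give bounds only, and single-probe values are not gene levels.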
